A study of Saccharomyces cerevisiae with 18 samples.

Results

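Baker's yeast that received only the solvent ethanol was followed between 120 and 180 min after the ethanol was added, with 3 arrays at each time. These 6 control arrays were chosen by their labels from the 18 arrays of a study on nonylphenol, a surfactant breakdown product, and 5498 probe sets of Saccharomyces cerevisiae, for 5449 genes, were compared on them. The strain, BY4742, is a haploid laboratory strain of mating type alpha that carries deletions of HIS3, LEU2, LYS2 and URA3. Per the labels' protocols, all cultures grew at 30 °C with shaking in YPD, a rich medium with glucose, and controls were given the ethanol volume of the dosed cultures in the middle of exponential growth. The dosed cultures of the study received nonylphenol in ethanol at 1 or 5 mg/L and also had 3 arrays at each time. They are used here for comparison and in the estimate of spread. The labels call the 3 arrays of a group biological replicates. The p-values rest on the spread between replicates, pooled over the groups of all 18 arrays. Cell density and glucose at collection are not analysed here.

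Yeast in glucose medium first ferments the sugar to ethanol and keeps genes for respiration and for other carbon sources low. Fast growth depends on making ribosomes, so the genes for ribosomal proteins and for ribosome assembly are among the most active in such cells. As glucose runs down, yeast is known to change its set of hexose transporters, slow ribosome production, store glycogen and trehalose, raise stress-protective proteins and turn toward respiration.

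Values are RMA signals on a log2 scale, so a difference of 1 is a doubling of signal. A probe set was called when its adjusted p in limma, Benjamini-Hochberg over all 5498 probe sets, was under 0.05. A whole-genome array of extracted RNA reports each transcript relative to the others, and fewer cells of a type and less RNA per cell cannot be told apart.

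The control arrays correlated at 0.9978 to 0.9988 within a time and at 0.9916 to 0.9964 between times. Mating-type genes followed the strain label. The alpha-cell agglutinin gene SAG1 had mean signals of 11.58 and 11.42 at 120 and 180 min and the receptor gene STE3 had 10.02 and 10.05. URA3 at 0.95 and 1.24 and LYS2 at 1.54 and 1.55 lay under the background level of 1.86, which is percentile 95 of the mean signals of probe sets for another yeast species, and LEU2 was low at 3.03 and 3.04. HIS3 had 9.34 and 9.48, well above background; the his3 allele of this strain family is an internal deletion that leaves part of the gene, and where the probe set lies in it was not examined. The 7 a-cell genes had mean signals of 2.07 to 5.59, all above the background level, and none of them was called.

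The signal of 5' relative to 3' control probe sets of 7 genes, a measure of RNA length and quality, moved with time in part. Its mean on the log2 scale was -1.165, -1.145 and -1.032 in the 3 arrays at 120 min and -1.133, -1.428 and -1.427 at 180 min. Replicate 1 at 180 min lay within the range of the 120 min arrays, and the other 180 min arrays lay below it. For this reason, values with this measure as a covariate, and with replicate 1 as the only 180 min array, are given beside the main gene groups.

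At 180 min, 1278 probe sets (23.2%) differed from 120 min, 612 (11.1%) of them higher and 666 (12.1%) lower. The split depends on the scaling: relative to spiked hybridization controls 813 were higher and 69 lower, and relative to spiked poly-A controls 1 probe set was called, lower. Without replicate 2 at 180 min the count was 646, without replicate 3 at 120 min 678 and without replicate 1 at 120 min 740. The changes were small: 61 called probe sets (1.11%) passed 1.5-fold and 2 (0.0364%), the stress gene HSP12 and the glucose transporter gene HXT1, passed 2-fold. The 3 arrays at 180 min lay entirely above those at 120 min for 1509 probe sets (27.4%) and entirely below for 1423 (25.9%), 2932 (53.3%) in all. With the 5' minus 3' covariate 1097 probe sets (20%) were called, and with replicate 1 as the only 180 min array 208. All 1278 kept their sign in both fits, a weak check since both fits use the arrays on which the 1278 were chosen. Leaving out each of the 6 arrays in turn, 568 probe sets were called every time, and all 568 were also called with the covariate.

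HSP12, which encodes a small membrane-associated stress protein, had the largest rise. Its signal was 7.14, 7.39 and 7.24 at 120 min and 8.13, 8.42 and 8.28 at 180 min. All 180 min arrays were above all 120 min arrays, and the log2 difference was 1.02 (SE 0.13, adjusted p = 5.79e-05). HSP26, a small heat shock chaperone gene, rose by 0.75 on the log2 scale. OPT2, of the oligopeptide transporter family, had signals of 6.17, 6.11 and 6.12, then 6.95, 6.86 and 7.12, a rise of 0.84 (SE 0.12, adjusted p = 0.000118). STF2, whose product binds the mitochondrial ATP synthase, rose by 0.79. EGO4 rose by 0.955 on the log2 scale, from 5.84, 5.94 and 5.87 to 6.72, 6.99 and 6.80.

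ADE17, an enzyme gene for the last steps of purine synthesis, stood at 9.53, 9.39 and 9.48 at 120 min and at 10.35, 10.27 and 10.11 at 180 min. The groups were far apart for their spread, with a log2 difference of 0.78 (SE 0.06, adjusted p = 6.02e-07). HAC1, the transcription factor of the unfolded protein response, rose by 0.84 with a wide error (SE 0.20, adjusted p = 0.00687), and with replicate 1 as the only 180 min array its adjusted p was 0.199. EEB1, which makes ethyl esters of fatty acids, rose by 0.76, COX5B, an alternative subunit of cytochrome c oxidase, by 0.76, and SDH6, an assembly factor of succinate dehydrogenase, by 0.75. The other genes among the 15 largest rises were RGI1, GPG1, the glycogen phosphorylase gene GPH1, the 6-phosphogluconolactonase gene SOL4 and RTC3, at 0.71 to 0.75.

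HXT1, the low-affinity glucose transporter gene that yeast induces in high glucose, had the largest fall. Its signal was 7.32, 7.26 and 7.42 at 120 min and 6.19, 6.15 and 6.26 at 180 min. The arrays of the 2 times did not overlap, and the log2 difference was -1.13 (SE 0.08, adjusted p = 4.45e-07). TOD6, which encodes a repressor of ribosome biogenesis genes, fell from 7.27, 7.24 and 7.29 to 6.40, 6.28 and 6.39, a difference of -0.91 (SE 0.08, adjusted p = 2.05e-06). Of the 15 largest falls, DBP2, SRP40, DHR2, LTV1, RRP12 and SPB1 encode nucleolar or ribosome assembly factors, with differences of -0.76 to -0.65. DBP2, an RNA helicase gene, stood at 9.70, 9.75 and 9.80 and then at 9.02, 8.97 and 8.99. The remaining falls were HXT2, the reductase genes FRE7 (-0.76) and FRE1 (-0.67), PRM7 (-0.69), YNL095C (-0.76), YAR068W (-0.66) and YAR066W (-0.66). The YAR066W probe set is of a type that can match several transcripts.

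**Figure D1:**
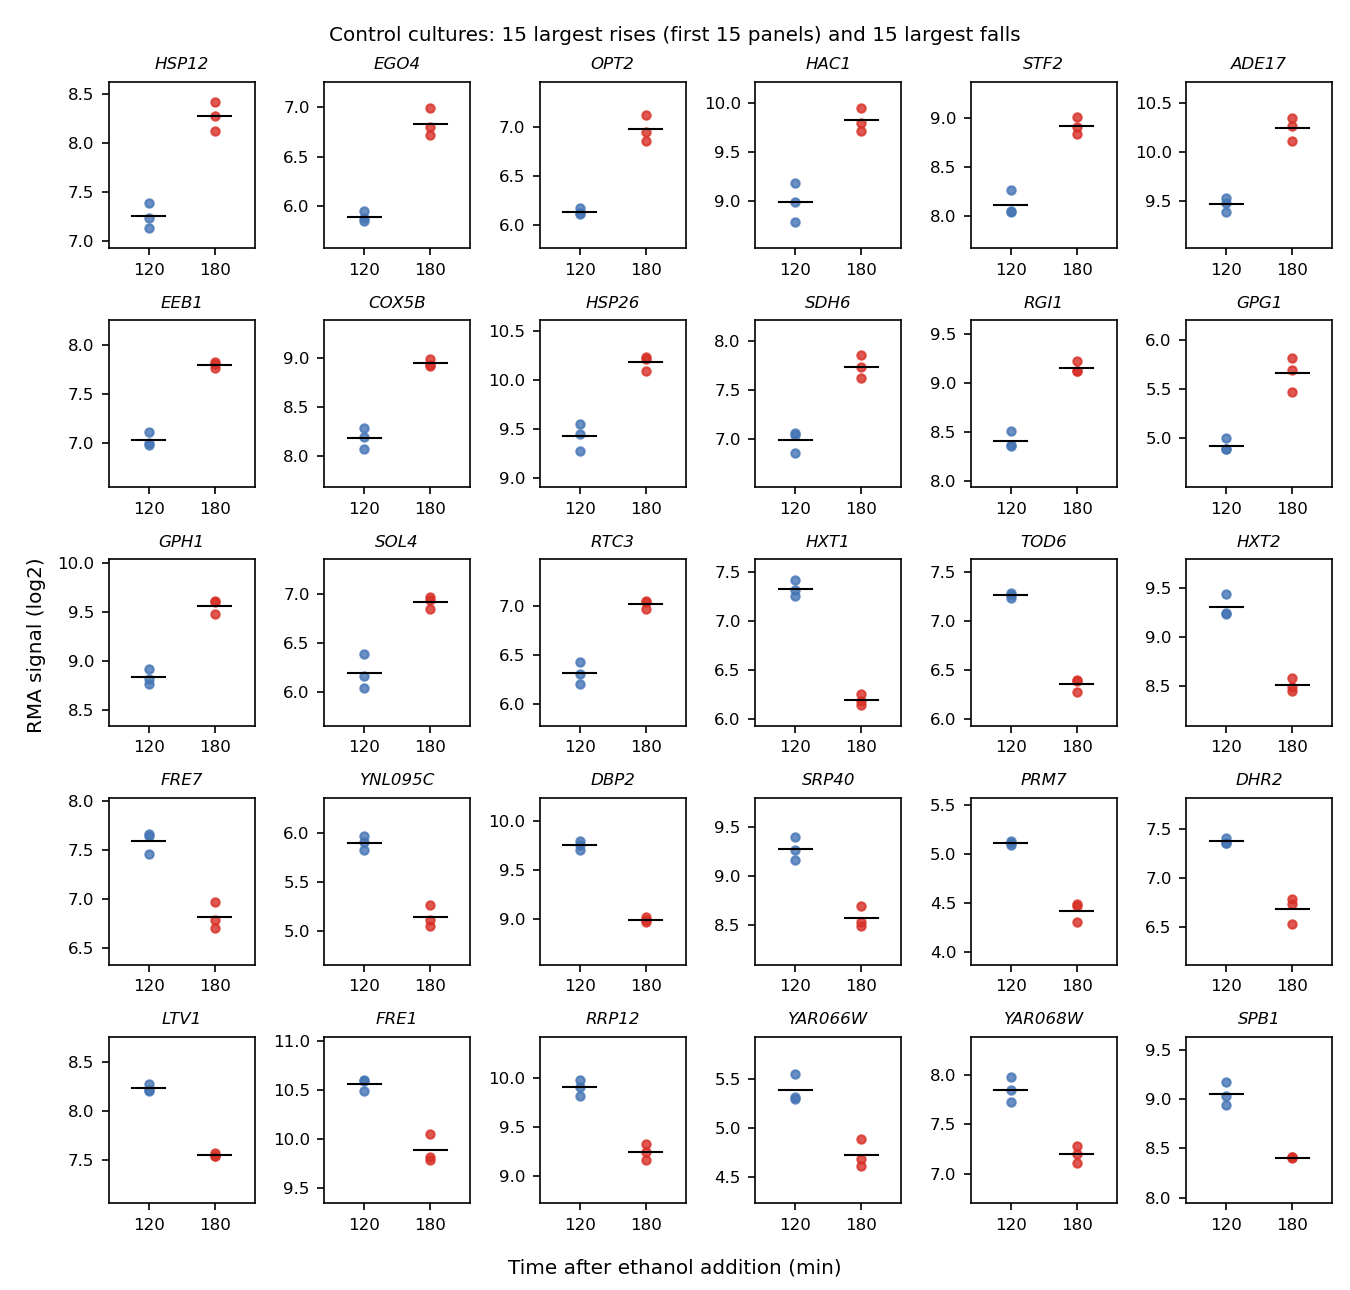
RMA signal (log2, vertical axes of equal span) of the 15 largest rises and 15 largest falls in the 3 control arrays at 120 min (blue) and 180 min (red), 1 point per array, with the group mean as a line. The genes were chosen among those whose times do not overlap; HSP12 (rise of 1.02) and HXT1 (fall of 1.13) have the largest differences of means.

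Hexose transporter genes changed in both directions. HXT4 rose from 9.64, 9.72 and 9.65 to 10.25, 10.12 and 10.11, a difference of 0.49 (SE 0.06, adjusted p = 5.79e-05). HXT7, a high-affinity transporter gene whose probe set can match near-identical copies, rose from 10.55, 10.52 and 10.51 to 11.12, 10.93 and 10.92, a difference of 0.46 (adjusted p = 0.00028). Both had their highest value in replicate 1 at 180 min. HXT2, another high-affinity transporter gene, fell from 9.25, 9.24 and 9.44 to 8.58, 8.49 and 8.45, a difference of -0.80 (SE 0.10, adjusted p = 4.73e-05). HXT3, a low-affinity transporter gene with signals of 11.11 to 11.26, was not called, with a difference of -0.10. Among regulators of glucose signalling, MTH1 rose by 0.26, and STD1 and MIG1, a repressor gene of the glucose response, each fell by 0.20 with adjusted p of 0.029 and 0.0483. Neither STD1 nor MIG1 was called with the 5' minus 3' covariate (adjusted p 0.08 and 0.15). MIG2 missed the threshold at -0.18 (adjusted p = 0.0503).

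Genes of glycolysis changed little as a group: 4 of 15 probe sets rose and none fell, with a median of 0.08 (-0.06 when scaled to spiked poly-A controls). The members called were TDH1 (0.50), HXK1 (0.60), GLK1 (0.47) and GPM1 (0.16). TDH1, a glyceraldehyde-3-phosphate dehydrogenase gene, stood at 11.50, 11.64 and 11.50 and then at 12.07, 12.07 and 12.02. HXK1 and GLK1 encode glucose-phosphorylating enzymes that yeast is known to lower in high glucose, while HXK2, the main hexokinase gene in glucose, had a difference of 0.02 (adjusted p = 0.763). In fermentation and overflow 1 of 15 probe sets rose, 2 fell and 12 were not called, beside 11.1% and 12.1% over all probe sets. ALD2 rose (0.27) and the acetaldehyde dehydrogenase genes ALD6 (-0.35) and ALD5 (-0.23) fell.

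Genes of respiration rose together. Of 36 probe sets for the respiratory chain and ATP synthase, 27 rose, none fell and 9 were not called, with a median of 0.31 against 0.0015 over all probe sets. The 3 arrays at 180 min lay above those at 120 min for 30 of the 36, against 27.4% over all probe sets. All 9 probe sets of cytochrome c oxidase and both cytochrome c genes were called higher, as were 6 of 9 of complex III and 9 of 12 of ATP synthase. None of the 3 NADH dehydrogenase probe sets was called. COX5B stood at 8.19, 8.28 and 8.07 at 120 min and at 8.91, 8.99 and 8.92 at 180 min (difference 0.76, SE 0.09, adjusted p = 2.57e-05). QCR10 rose by 0.58, CYC7, the minor cytochrome c gene, by 0.51 and ATP15 by 0.42, and HAP4, the activator gene of respiration, rose by 0.29. The ATP synthase genes ATP1 (-0.03) and ATP2 (0.09) and the iron-sulfur protein gene RIP1 (0.08) were not called. With the 5' minus 3' covariate 31 of the 36 were called higher, and with replicate 1 as the only 180 min array the median was 0.32.

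In the citrate cycle 9 of 17 probe sets rose and none fell, with a median of 0.23 and all 17 above 0, and 12 were called with the covariate. CIT1, the mitochondrial citrate synthase gene, stood at 10.16, 10.20 and 10.20 and then at 10.65, 10.61 and 10.62 (difference 0.44, SE 0.05, adjusted p = 1.34e-05). All 4 probe sets of succinate dehydrogenase, which also belongs to the respiratory chain but is counted here, were called higher. LSC2 (0.58), SDH2 (0.41) and MDH1 (0.27) rose as well, and KGD1 (0.05) and FUM1 (0.07) were not called. Of 69 probe sets of mitochondrial ribosomal proteins, 40 rose and none fell, with a median of 0.22. The largest rise among them was MRP2, at 8.06, 8.12 and 7.95 and then 8.65, 8.74 and 8.57 (0.61, adjusted p = 0.000916). The list also held KGD4, a ketoglutarate dehydrogenase component formerly counted as a ribosomal protein, which rose by 0.40. With the 5' minus 3' covariate 29 of the 69 were called and the median was 0.16.

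Genes for the use of other carbon sources rose in part. In gluconeogenesis and the glyoxylate cycle 7 of 15 probe sets rose and none fell. MLS1, the malate synthase gene, rose at low signal from 2.88, 3.05 and 3.13 to 3.55, 3.57 and 3.59 (0.55, adjusted p = 0.000339). CIT2 and the regulator gene CAT8 each rose by 0.30. ICL1 (-0.02), PCK1 (0.04) and FBP1 (0.23), which encode key enzymes of these pathways, were not called. With the covariate 4 of the 15 were called. Of 13 probe sets for sucrose, maltose and galactose use, MAL11, MAL33 and GAL7 rose, by 0.27 to 0.45, and MAL33 (adjusted p = 0.057) and GAL7 (adjusted p = 0.148) were not called with the covariate.

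Storage carbohydrate genes rose in part. Of 19 probe sets for glycogen and trehalose, 11 rose and none fell, with a median of 0.26, and the same count was called with the covariate. GPH1 stood at 8.77, 8.92 and 8.82 and then at 9.48, 9.61 and 9.60 (0.73, SE 0.06, adjusted p = 7.86e-07). The glycogen synthase gene GSY1 rose by 0.60 and the branching enzyme gene GLC3 by 0.59, while GSY2 (0.17) was not called. On the trehalose side, TPS2 (0.26), TSL1 (0.34) and the trehalase gene NTH1 (0.31) rose, and the synthase gene TPS1 had a difference of 0.20 without a call.

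Of 31 general stress probe sets, 16 rose and none fell, with a median of 0.23, and 16 were called with the covariate. Beside HSP12, HSP26 and SOL4, TMA10 rose by 0.66 (6.50, 6.53 and 6.39, then 7.11, 7.24 and 7.05) and GAD1, glutamate decarboxylase, by 0.65. CTT1, the cytosolic catalase gene, had 0.17, the stress factor gene MSN4 -0.08 and DDR48 0.00, and none of them was called. In the heat shock and chaperone list 7 of 27 rose and 3 fell, among them SSA4 (0.39) up and YDJ1 (-0.26) down. In the oxidative stress list 5 of 31 rose and 2 fell, beside 11.1% and 12.1% over all probe sets, with the glutaredoxin gene GRX1 at 0.35. None of the 33 proteasome probe sets was called.

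The machinery of ribosome assembly fell almost as a whole. Of 75 probe sets of ribosome biogenesis factors, 66 fell, none rose and 9 were not called. All 75 had 3 arrays at 180 min below the 3 at 120 min, against 25.9% over all probe sets. Their median was -0.41 and their range -0.76 to -0.08. LTV1, a factor of small subunit assembly, stood at 8.28, 8.21 and 8.22 and then at 7.54, 7.54 and 7.57 (-0.69, SE 0.05, adjusted p = 5.19e-07). FAF1 stood at 7.32, 7.29 and 7.29 and then at 6.68, 6.68 and 6.75 (-0.60, adjusted p = 7.02e-06), and UTP5, of the small subunit processome, fell by 0.52 on the log2 scale. All 11 helicase probe sets of the list fell, with a median of -0.46. The 9 without a call included CBF5 (-0.12), GAR1 (-0.10) and NHP2 (-0.08), which encode proteins of the particles that modify ribosomal RNA. With the covariate 66 of the 75 were called lower, and with replicate 1 as the only 180 min array the median was -0.40.

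RNA polymerases I and III, which make ribosomal and transfer RNA, fell in part: 13 of 28 probe sets were lower and none higher, with a median of -0.16. RPA43 of polymerase I stood at 8.75, 8.81 and 8.83 and then at 8.34, 8.30 and 8.31 (-0.48, SE 0.06, adjusted p = 7.17e-05). Of the polymerase I subunits 5 of 7 were called, and of the polymerase III subunits 6 of 10. Of 35 translation factor probe sets 10 fell and 1 rose, with GCD14 at -0.43 and the initiation factor gene GCD2 at -0.34. With the covariate 15 of the 28 and 8 of the 35 were called lower.

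Ribosomal proteins of the cytosol had few calls. Of 147 probe sets for 127 genes, 2 rose, RPL39 (0.33) and RPL41A (0.21), and none fell. Their median was 0.10 (-0.04 when scaled to spiked poly-A controls), and 130 of the 147 differences were above 0. RPL39 stood at 11.36, 11.32 and 11.21 and then at 11.64, 11.66 and 11.57 (adjusted p = 0.0438), and neither gene was called with the covariate. Many of these genes exist as near-identical pairs whose probe sets can share signal.

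**Figure D2:**
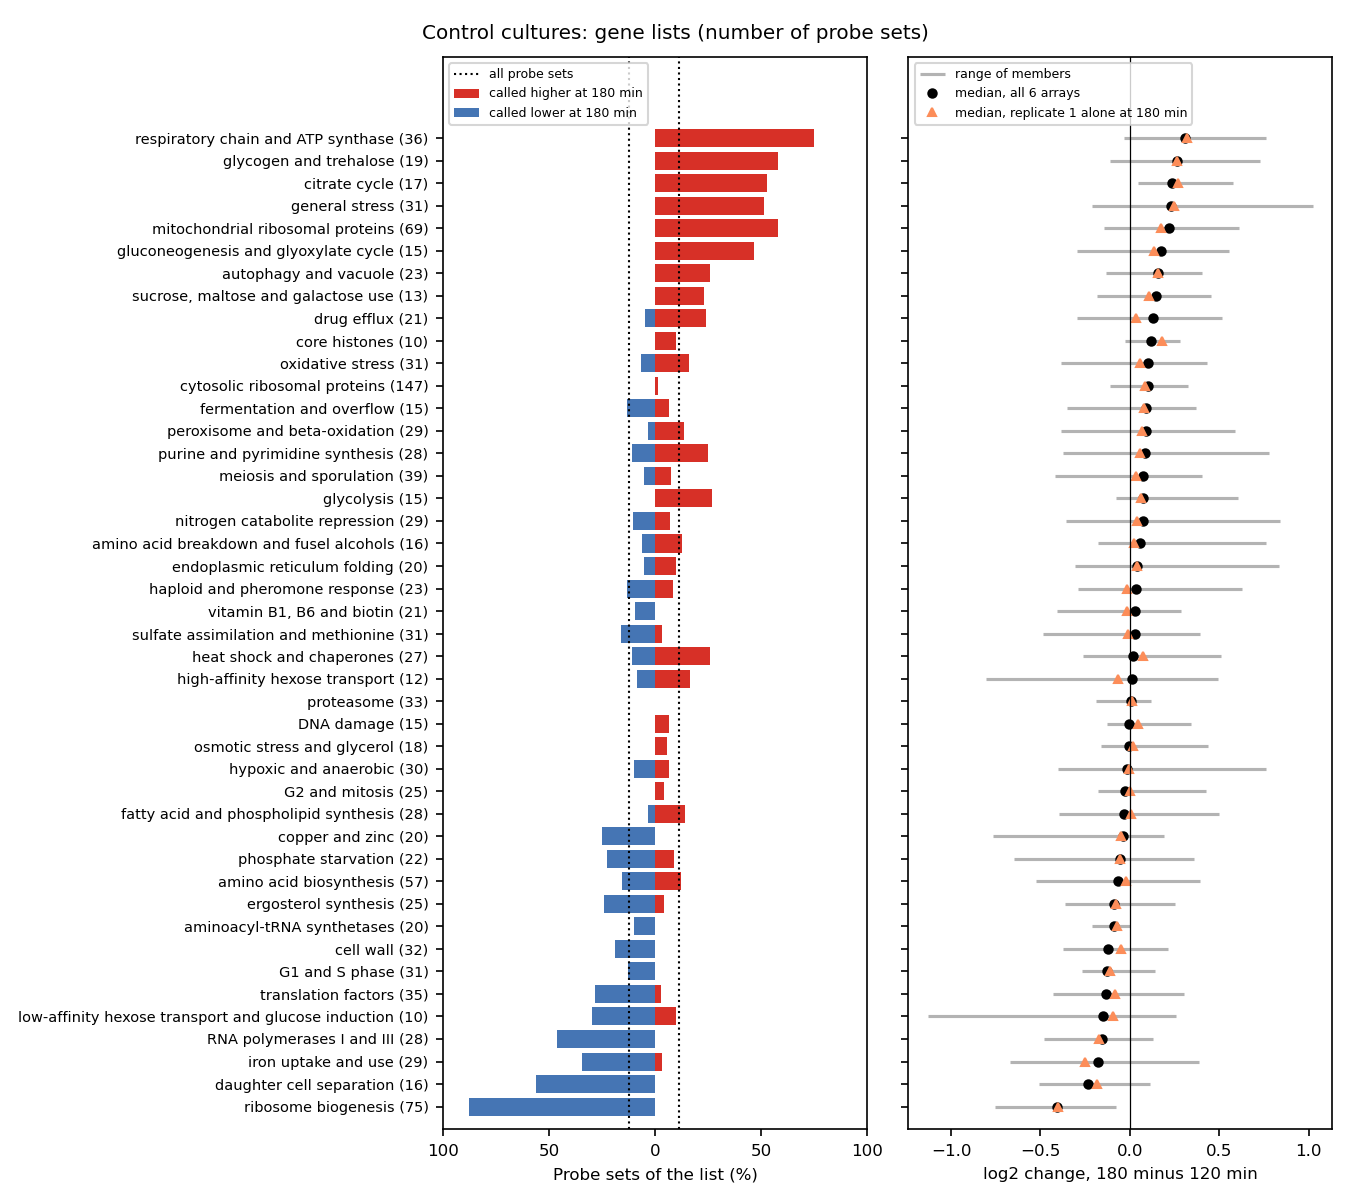
Left, percentage of the probe sets of each gene list with at least 8 probe sets called higher (red) or lower (blue) at 180 min in controls, with the share over all probe sets as dotted lines (11.1% and 12.1%); right, median log2 difference with all 6 arrays (black) and with replicate 1 alone at 180 min (orange), and the range of members (grey). Lists are ordered by median, from ribosome biogenesis (-0.41) to the respiratory chain and ATP synthase (0.31).

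The list means were also taken array by array. The mean of the respiratory list, relative to its 120 min mean, was 0.329, 0.333 and 0.254 in the 3 arrays at 180 min. The mean of the ribosome biogenesis list was -0.388, -0.394 and -0.385. In the cell wall list replicate 1, whose 5' minus 3' signal lay in the 120 min range, stood apart at -0.052 against -0.183 and -0.135 in the other 180 min arrays, and in the peroxisome list at 0.031 against 0.093 and 0.142. The part of RNA quality in the list results was not tested.

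**Figure D3:**
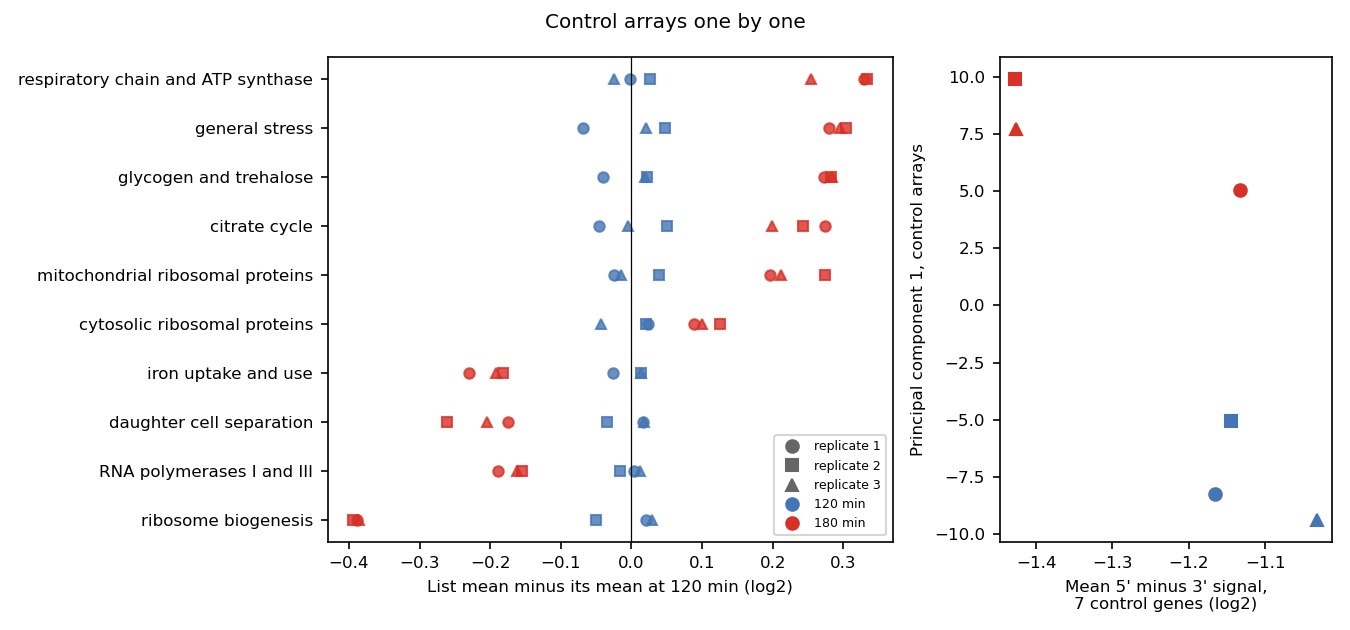
Left, mean signal of 10 gene lists in each control array minus the list's mean at 120 min (log2), with replicates as symbols and times as colours; right, first principal component of the control arrays against the mean 5' minus 3' signal. On the left the 2 times do not overlap in any of the 10 lists, which are a selection from the 47. Lists with mixed calls also did not overlap, such as heat shock and chaperones, with up to 0.021 at 120 min and from 0.042 at 180 min. On the right replicate 1 at 180 min (circle, red) has a 5' minus 3' signal of -1.133, inside the 120 min range.

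A part of the metal uptake genes fell. Of 29 iron probe sets, 10 fell, 1 rose and 18 were not called, with a median of -0.18. FRE1, the main surface reductase gene for iron and copper, stood at 10.60, 10.59 and 10.49 and then at 9.79, 10.05 and 9.82 (-0.67, SE 0.09, adjusted p = 0.00011). The siderophore transporter genes SIT1 (-0.50) and ARN1 (-0.49), the high-affinity pair FET3 (-0.32) and FTR1 (-0.34), and the activator gene AFT1 (-0.35) fell. The copper chaperone gene ATX1 rose by 0.39. With the covariate 9 of the 29 were called lower. Of 20 copper and zinc probe sets 5 fell, none rose and 15 were not called, with a median of -0.04 (0.07 when scaled to hybridization controls): the reductase gene FRE7 (-0.76), the copper transporter genes CTR1 (-0.56) and CTR3 (-0.34), and ZAP1 (-0.28) and ZRT1 (-0.23) of zinc uptake.

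Of 22 phosphate probe sets 5 fell and 2 rose. PHO89, a phosphate transporter gene, stood at 5.28, 5.13 and 5.48 and then at 4.55, 4.73 and 4.67 (-0.65, SE 0.10, adjusted p = 0.000267). The regulator gene PHO4 (-0.54) and the phosphatase genes PHO11 (-0.45) and PHO5 (-0.44) fell, GPP2 rose by 0.36, and the main transporter gene PHO84 had -0.24 without a call. The PHO11 probe set can match near-identical copies.

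Genes of daughter cell separation, which are active as the cell leaves mitosis, fell in 9 of 16 probe sets and rose in none, with a median of -0.23, and 8 were called lower with the covariate. PRY3 stood at 9.37, 9.24 and 9.26 and then at 8.88, 8.64 and 8.81 (-0.51, SE 0.12, adjusted p = 0.00646), and BUD9, EGT2 and DSE4 fell by 0.33, 0.28 and 0.29 on the log2 scale. Of 31 probe sets of G1 and S phase, 4 fell (RAD27, MSH6, SMC3 and CDC45, by 0.15 to 0.27) and none rose. The share of calls was close to the 12.1% called lower over all probe sets, but the list leaned lower. Of its 31 differences 28 were below 0 and 3 above, with a median of -0.13 (-0.02 when scaled to hybridization controls). The later arrays lay entirely below the earlier ones for 17 of the 31, against 25.9% over all probe sets, and entirely above for none. In G2 and mitosis 1 of 25 was called, the cyclin gene CLB1, at 0.43. Of 10 histone probe sets 1 was called, HTA2 at 0.28 (adjusted p = 0.125 with the covariate), while a second HTA2 probe set had 0.05. Of 32 cell wall probe sets 6 fell and none rose, led by UTR2 (-0.36), and with the covariate 1 of the 32 was called lower and 2 higher.

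Synthesis pathways split by gene. Of 28 purine and pyrimidine probe sets 7 rose and 3 fell: ADE17, ADE2 (0.31), ADE8 (0.35), ADE12 (0.28), ADE4 (0.25), MTD1 (0.17) and ADE16 (0.13) rose, while the CTP synthase gene URA7 (-0.37), the GMP synthase gene GUA1 (-0.28) and MIS1 (-0.22) fell. Of 57 amino acid biosynthesis probe sets 7 rose and 9 fell, near the 11.1% and 12.1% over all probe sets. LYS20, the first enzyme gene of lysine synthesis, stood at 9.23, 9.22 and 9.19 and then at 8.61, 8.75 and 8.71 (-0.53, SE 0.06, adjusted p = 2.57e-05), CPA1 of arginine synthesis fell by 0.45, and HIS4 (0.37) and GCV1 (0.39) rose. Of 25 ergosterol probe sets, with a median of -0.09 (0.02 when scaled to hybridization controls), 6 fell, including HMG1 (-0.26) and ERG3 (-0.36), and 1 rose. Of 28 fatty acid and phospholipid probe sets 4 rose, including OPI3 (0.50) and ELO1 (0.41), near the 11.1% over all probe sets. INO2, an activator gene of phospholipid synthesis, fell by 0.40 on the log2 scale.

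Lists of other functions held fewer or mixed calls, and over all probe sets 11.1% rose and 12.1% fell. Of 23 autophagy and vacuole probe sets 6 rose, among them ATG19 (0.40) and APE1 (0.36). Of 21 drug efflux probe sets 5 rose, led by QDR2 (0.44), and SNQ2 fell (-0.30). In the haploid and pheromone list 2 of 23 rose and 3 fell, close to the shares over all probe sets of 11.1% and 12.1%. FIG1, a mating gene, stood at 2.89, 2.71 and 2.85 and then at 3.31, 3.41 and 3.61 (0.63, adjusted p = 0.000731). Of 31 sulfate and methionine probe sets 1 rose, MUP3 (0.39), and 5 fell, with MET13 at -0.49. Of 29 probe sets of nitrogen catabolite repression 2 rose and 3 fell, with GAT1, an activator gene, at -0.34. In amino acid breakdown and fusel alcohols EEB1 and ARO10 (0.44) rose and TAT1 (-0.18) fell.

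Of 29 peroxisome probe sets 4 rose and 1 fell, with the rises close to the 11.1% over all probe sets, and POX1, the acyl-CoA oxidase gene, rose at low signal by 0.59. Of 30 hypoxic probe sets 2 rose, COX5B and CYC7, and 3 fell. In endoplasmic reticulum folding HAC1 and UBC7 (0.20) rose and SCJ1 (-0.31) fell, of 20. The meiosis and sporulation list had 3 of 39 higher and 2 lower. The vitamin list had 2 lower, THI7 (-0.41) and PHO3 (-0.31), and the aminoacyl-tRNA synthetase list 2 lower, ALA1 (-0.21) and KRS1 (-0.18). In the remaining lists 1 gene each rose: GPP2 in osmotic stress, TSL1 in DNA damage, HMLALPHA1 (0.22) among alpha-cell genes and ADE2 among strain markers. Beside the genes already given, CAT8, ADE4, ADE8, ADE16, MTD1, SMC3, UBC7, SNQ2, ALA1, KRS1 and HMLALPHA1 were not called with the 5' minus 3' covariate, at adjusted p from 0.0533 (ADE4) to 0.119 (MTD1).

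Short genes and long genes moved apart. The probe sets were put into 4 groups of about equal number by gene length. For genes of 51 to 753 bp the median difference was 0.10, and 20.7% were called higher and 4.33% lower. For genes of 1892 to 14733 bp the median was -0.07, and 3.49% were called higher and 17.9% lower. With the covariate the medians of these length groups were 0.06 and -0.06. Among lists that rose, median gene length was 454.5 bp for respiration, 660 bp for mitochondrial ribosomal proteins and 2127 bp for glycogen and trehalose. For ribosome biogenesis, which fell, it was 1659 bp. The part of gene length in the list results was not tested.

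**Figure D4:**
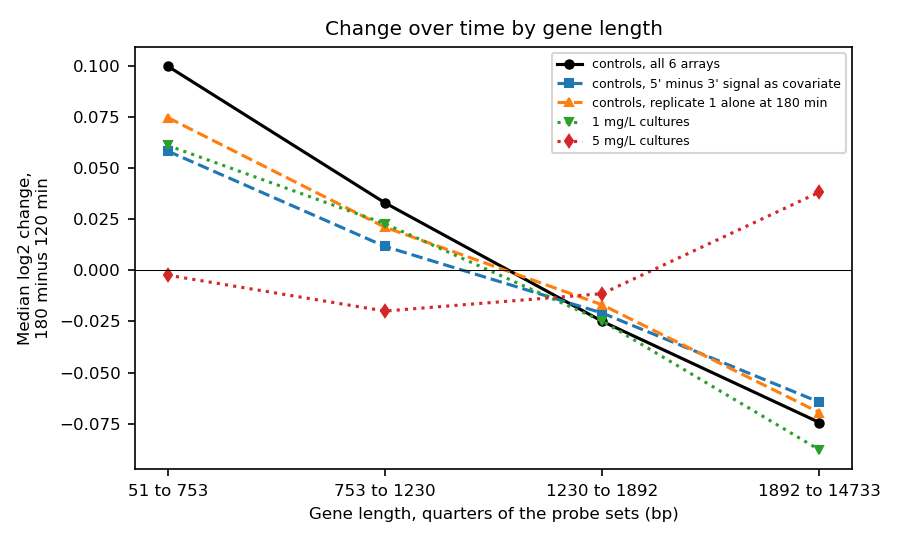
Median log2 difference between 180 and 120 min over 4 groups of gene length (bp), for controls with all 6 arrays, with the 5' minus 3' covariate and with replicate 1 alone at 180 min, and for the 1 and 5 mg/L cultures. The control medians run from 0.10 in the shortest genes to -0.07 in the longest, and the 5 mg/L medians lie between -0.02 and 0.04.

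The same interval was measured in dosed cultures, whose arrays are separate from the control arrays. A batch shared by same-numbered control and dosed arrays was not tested. At 1 mg/L nonylphenol 561 probe sets (10.2%) were called between the times, 190 (3.46%) higher and 371 (6.75%) lower. Across the 5498 probe sets the change over time at 1 mg/L correlated with that in controls at r = 0.837, a description across genes, which are not independent replicates. Of the 612 probe sets that rose in controls 603 (98.5%) had the same sign at 1 mg/L, and of the 666 that fell 664 (99.7%) did. Their median change was 0.19 against 0.295 for the rises and -0.22 against -0.295 for the falls. These probe sets were chosen by their change in controls, which favours large control values, so the medians do not compare the sizes of the changes. The share with the same sign over all probe sets was not taken. HXT1 changed by -0.86 and HSP12 by 0.66 at 1 mg/L. The difference between the changes at 1 mg/L and in controls passed the threshold in limma for 0 probe sets (0%), with 139 at an unadjusted p under 0.05 and 159 in limma with array weights. The smallest p-values were those of OLE1, the fatty acid desaturase gene, and IZH4, which changed by -0.59 and -0.61 at 1 mg/L and by -0.04 and -0.01 in controls (adjusted p = 0.0825 for both). MLS1, which rose by 0.55 in controls, changed by 0.01 at 1 mg/L (adjusted p = 0.854 for the difference).

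At 5 mg/L the control pattern was not seen. There 49 probe sets (0.891%) were called between the times, 20 (0.364%) higher and 29 (0.527%) lower, and the correlation with the control change was -0.0557. Of the 612 rises 293 (47.9%) and of the 666 falls 311 (46.7%) had the same sign. The difference between the changes at 5 mg/L and in controls was called for 824 probe sets (15%), 469 (8.53%) higher and 355 (6.46%) lower. Scaled to hybridization controls it was called for 14 higher and 168 lower, and scaled to poly-A controls for 5 higher and 0 lower. Of the 75 ribosome biogenesis probe sets 46 were among them, with a median change of -0.03 at 5 mg/L, and of the 36 respiratory probe sets 23, with a median of -0.07. HXT1, at means of 8.26 and 8.28 at 120 and 180 min, changed by 0.02 at 5 mg/L. In the daughter separation list 11 of 16 probe sets were among the 824, with a median change of 0.18 at 5 mg/L.

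**Figure D5:**
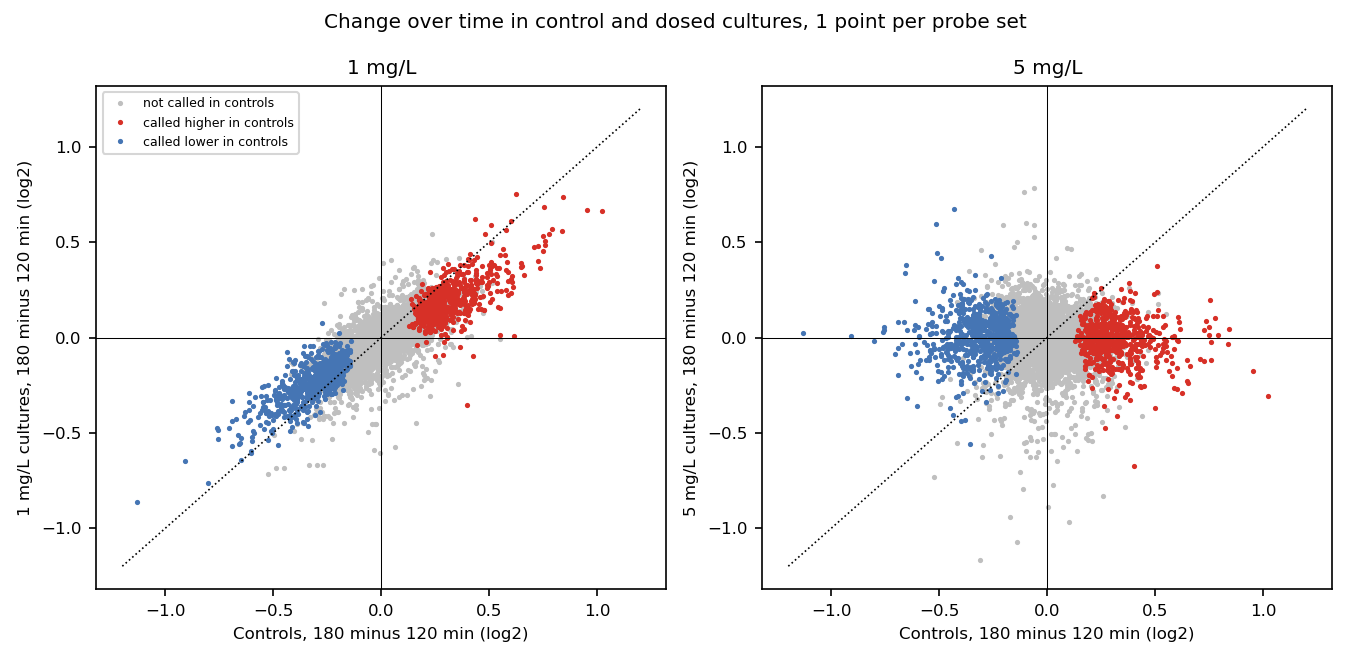
Log2 change from 120 to 180 min in 1 mg/L (left) and 5 mg/L cultures (right) against the change in controls, 1 point per S. cerevisiae probe set, coloured by the call in controls; the dotted line marks equal change. The points follow the diagonal at 1 mg/L (r = 0.837) and lie along the horizontal axis at 5 mg/L (r = -0.0557).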

How the data were processed

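The authors deposited 1 table of 10928 probe sets for 18 arrays; its values are RMA signals read here as log2 from their range, and RMA, affy and limma are named, without versions, per the submitters' processing notes. Per the labels' protocols, 100 ng of RNA (RNeasy Mini Kit) per array was labelled with the GeneChip 3' IVT Express Kit. RMA sets all arrays to one distribution, so a shift shared by most genes cannot be seen. Of 7245 named probe sets, 7244 had 1 gene symbol and 1 had several, and 3470 had none; 5498 were of S. cerevisiae, 1747 of another yeast species, and 12 symbols were updated. Gene lengths are those of the annotation table given.

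A group-means model over all 18 arrays was fitted in R 4.3.3 with the lmFit and eBayes functions of limma 3.58.1; the procedure was tested on simulated data. The number of arrays limits the precision. The members and the 47 gene lists (1317 genes, 51 without a probe set, 13 in several lists) were chosen with earlier results of these data known. Named were the 15 largest rises and 15 largest falls among called, non-overlapping probe sets above background; up to 4 called members of each list with the smallest p, and any member of lists under 12; and the 5 largest differences each way from the dosed cultures, or the 3 smallest p-values each way where none was called. Other members named in the text were chosen after their values were seen, to show what a count holds. The replicate number was not used as a block, since the labels name no batch or pairing. Residuals of same-numbered control arrays at the 2 times correlated at -0.03, 0.35 and -0.09. For same-numbered control and 1 mg/L arrays the residuals correlated at 0.25, 0.41 and 0.37 at 120 min. At 180 min these correlations were 0.52, 0.36 and -0.30. Such arrays enter the comparison of the changes at 1 mg/L and in controls, and a shared batch was not tested. Alternatives covered the arrays fitted, the replicate number as a block, normalization, scaling to spiked controls, dim probe sets, array weights, the prior, and each array left out. The 5' minus 3' covariate and replicate 1 alone at 180 min were added after seeing the data.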

Additional observations from a re-analysis of the deposited data

Results flagged for a closer look

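The change from 120 to 180 min differed between the 5 mg/L cultures and the controls for 824 probe sets by limma's test of the difference itself, 469 higher and 355 lower (14 and 168 when scaled to hybridization controls). The differences below are the change at 5 mg/L minus the change in controls, on the log2 scale, for the 5 largest each way. HXT1, the low-affinity glucose transporter gene, had 1.155 (SE 0.11, adjusted p = 2.17e-05), with a fall in controls and a change of 0.02 at 5 mg/L. YMR317W had 1.113, FIT1, a cell wall protein gene of iron retention, 1.105, YAR068W 1.038 and YAR066W 0.9959. FIT1's fall in controls was not called with the 5' minus 3' covariate (adjusted p = 0.114). These fell in controls by 0.43 to 0.66, and changed by 0.34 to 0.67 at 5 mg/L.

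HSP12 had -1.331 (SE 0.18, adjusted p = 0.000435), with a rise in controls and a change of -0.31 at 5 mg/L, from a mean of 9.87 to 9.56. EGO4 had -1.129 and the sporulation gene SPR3 -1.079. SAE3, a meiotic recombination gene, had -1.089, although its control arrays lay under the background level. SRT1 had -1.069, with a change of 0.10 in controls and -0.97 at 5 mg/L.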

How the results depend on the processing

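The alternatives refit the same arrays or a part of them, so a kept sign is a weak check of calls chosen in the main fit. All 1278 control calls kept their sign under every alternative except under scaling to the spiked poly-A controls, where 1277 did and ADE16 turned from 0.13 to -0.005197. That scaling moved the median of all probe sets by -0.13, and scaling to the hybridization controls moved it by 0.11. Relative to 0, many list medians then changed sign, and those given here are examples. Under poly-A scaling those of glycolysis (-0.06), cytosolic ribosomal proteins (-0.04), oxidative stress (-0.04) and purine and pyrimidine synthesis (-0.05) lay below 0. Under hybridization scaling those of ergosterol synthesis (0.02), copper and zinc (0.07), amino acid biosynthesis (0.05) and phosphate starvation (0.06) lay above 0. Control calls numbered 2217 with only the compared arrays, 1 with poly-A scaling, 2861 with array weights, 208 with replicate 1 alone at 180 min, and 646 to 1149 without 1 array; hybridization scaling gave 882, of which 813 were higher and 69 lower. Counts without 120 min replicates 1 and 3 and 180 min replicate 2 were 740, 678 and 646. At 1 mg/L (561), the counts were 37 with only the compared arrays, 0 with poly-A and 35 with hybridization scaling, 1563 with weights, 1026 with the 5' minus 3' covariate and 253 to 798 without 1 array. At 5 mg/L (49), they were 7 with only the compared arrays, 79 with quantile normalization repeated, 2 with poly-A and 4 with hybridization scaling, 655 with weights, 240 with the covariate and 7 to 131 without 1 array. Differences from controls at 1 mg/L (0) numbered 159 with weights, 1 with the covariate and 0 without any 1 array; at 5 mg/L (824) they numbered 5 with poly-A and 182 with hybridization scaling, 2203 with weights, 119 with replicate 1 alone and 403 to 1160 without 1 array. Fewer samples were fitted with replicate 1 alone, whose spread is assumed to be that of the other groups. The mean signal of the spiked poly-A controls had an SD of 0.23 between control arrays at 120 min and 0.44 at 180 min. Its difference between the times was 0.14. The part of this spread in the poly-A counts, and the cause of the other shifts, was not tested. With the replicate block 1292 control probe sets were called, 1219 of them shared with the 1278; the labels do not say that the numbers pair samples, and of 45 same-number pairs 18 correlated over 0.1 in their residuals.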

Other observations

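Genes grouped by the letters of their symbols, a grouping made after the values were seen, gave further groups. Of 15 VMA probe sets, which encode the vacuolar proton pump and its assembly factors, 7 rose and none fell, with a median of 0.24. Of 10 COQ probe sets, for coenzyme Q synthesis, 7 rose, with a median of 0.19. Of 15 TRM probe sets, for enzymes that modify transfer RNA, 9 fell and none rose, with a median of -0.22. With the 5' minus 3' covariate these medians were 0.13, 0.18 and -0.24, and at 1 mg/L nonylphenol they were 0.13, 0.17 and -0.20. Over all probe sets 11.1% rose and 12.1% fell, and no test was made of these groups.

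Of 47 genes with several probe sets, 3 had all of them called the same way, 4 had some called and 0 had opposite calls.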
